A study of Bos taurus with 6 samples.

Results

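The change in testis transcript levels of Angus bull calves between 2 and 4 weeks of age was examined on Affymetrix bovine oligonucleotide arrays. Members were all probe sets with 1 gene symbol in the platform annotation and a mean signal over 30 on the 4 arrays compared. There were 9348 of them among 24016 probe sets without controls, and they stand for 7156 genes. The groups are intact bull calf testis at 2 weeks and at 4 weeks, with 2 arrays at each age, labelled 2wk and 4wk. The 2 arrays of 8 weeks entered the statistical fit, and their values are given as context for some genes. The labels name no treatment, genotype or pooling, and they do not say whether replicates came from separate calves. Tests here therefore weigh an age difference against the spread of these arrays alone, and that spread may be technical.

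In the first weeks after birth the bovine testis consists of seminiferous cords, in which immature Sertoli cells surround gonocytes and early spermatogonia. Sertoli cells secrete anti-Müllerian hormone and inhibin while immature. Later they close the blood-testis barrier with gap and tight junctions as meiosis begins. Between the cords lie Leydig cells, which make steroids from cholesterol, with peritubular myoid cells, vessels and resident leukocytes. Sequences of the transcripts and their proteins were not used here.

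The samples carried the defining transcripts of testis. AMH, the anti-Müllerian hormone of Sertoli cells, had signals of 2177.1 and 2755.5 at 2 weeks and 1966.2 and 2395.4 at 4 weeks. INSL3, a hormone of Leydig cells, stood at 5153.2 and 7694.6 and at 6042.4 and 7566.9, where values are replicate 1 and then replicate 2 of each age here and below. Both genes overlapped between the ages. Signals are scaled intensities, with a median of 48.3 to 52.5 on the 4 arrays, and the level of one probe set is not set against that of another. In whole tissue, fewer cells of a type and less RNA per cell cannot be told apart.

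The second array of 2 weeks stood apart from the others. Over the tested probe sets its log2 values correlated with those of the other 5 arrays at 0.917 on average, against 0.952 to 0.960 for the rest. The first array of 2 weeks correlated at 0.974 with 4wk replicate 1 and at 0.917 with its own replicate. The ratio of 3′ to 5′ control probe sets, a measure of RNA integrity, was 4.47 and 10.1 for actin at 2 weeks and 4.05 and 9.91 at 4 weeks, and 25.6 and 34.9 on the 8-week arrays. For EF1A it was 0.198 on 2wk replicate 2 and 0.269 to 0.298 on the other 5 arrays. For GAPDH it was 1.02 and 0.967 at 2 weeks and 0.977 and 0.899 at 4 weeks. Whether RNA integrity has a part in the results was not tested. Genes below are therefore described by the signal of each array. Where a change is printed, it is given against each 2-week array unless called fitted. It is the mean of both 4-week arrays minus that 2-week array on the log2(signal + 16) scale. On this scale, changes of dim genes are understated.

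Of 14796 probe sets tested, limma gave none (0.0%) a Benjamini-Hochberg adjusted p below 0.05 for 4 against 2 weeks, the lowest being 0.945. An unadjusted p below 0.05 was found for 526 (3.56%), fewer than the 739.8 that chance alone would give on average, and 286 of these were higher (1.93%) and 240 lower (1.62%) at 4 weeks. An exact permutation test of 2 against 2 arrays cannot give a two-sided p under 0.333, so single genes are described by their values. The number of calls depended on which 2-week array was used. Without 2wk replicate 1, so that 2wk replicate 2 alone stood for that age and was assumed to vary like the other ages, 1109 probe sets passed, 870 higher and 239 lower. Without 2wk replicate 2, 1 probe set without a symbol passed. Without 4wk replicate 1, leaving 4wk replicate 2 alone for its age, AKR1C4 and an unnamed probe set passed, and without either 8-week array LOC508666 was the only one.

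Both 4-week arrays lay above both 2-week arrays in 1091 of the 9348 named probe sets (11.7%), and below them in 1444 (15.4%). Over all 14796 tested probe sets these shares were 13.1% and 14.2%. In 4678 of the named probe sets the change had opposite signs against the 2 arrays of 2 weeks. The changes were wider against 2wk replicate 2 (SD 0.515 over probe sets) than against 2wk replicate 1 (SD 0.298). Against 2wk replicate 1, 59 probe sets (0.631%) were over 2-fold higher and 18 (0.193%) over 2-fold lower. Against 2wk replicate 2 the counts were 317 (3.39%) and 130 (1.39%). Only 10 probe sets (0.107%) were over 2-fold higher and 8 (0.0856%) over 2-fold lower against each array. The plot of both changes shows this as a cloud that is taller than it is wide.

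**Figure D1:**
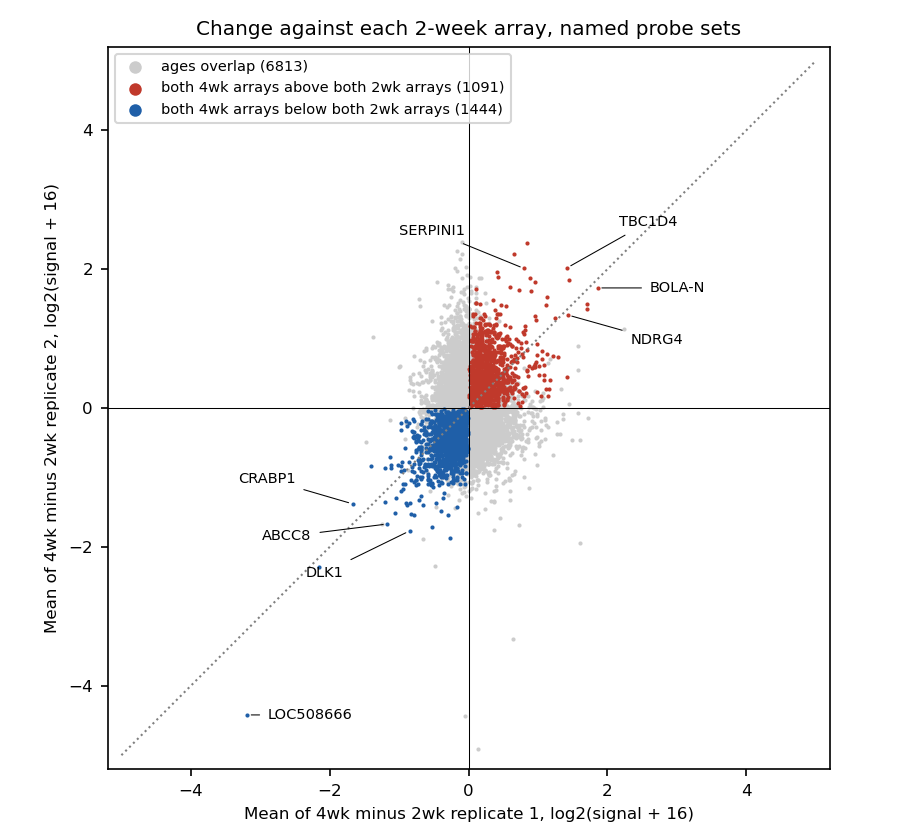
Each point is a named probe set, placed by the mean of the 4-week arrays minus 2wk replicate 1 (x axis) and minus 2wk replicate 2 (y axis), in log2(signal + 16). Red points (1091) lie above and blue points (1444) below both 2-week arrays on both 4-week arrays, and the vertical spread (SD 0.515) exceeds the horizontal (SD 0.298).

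The 2 arrays of 2 weeks differed more than those of 4 weeks in dim and in bright probe sets. The SD of the replicate difference at 2 weeks was 0.544 among the 3670 named probe sets with mean signals from 30 to 100, and 0.417 among the 572 over 1000. At 4 weeks it was 0.444 and 0.304. The standard error of the fitted change had a median of 0.29 in the dimmest class and 0.21 in the brightest.

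Among genes higher at 4 weeks, the widest gap was that of NDRG4, a member of the N-myc downstream regulated family, where a gap is the smallest of the 4 differences between a 4-week and a 2-week array. It had signals of 30 and 33.1 at 2 weeks and 99.8 and 117.4 at 4 weeks. Its changes against the 2 arrays of 2 weeks were 1.43 and 1.34, with a fitted difference of 1.39 ± 0.24 (SE), and the 8-week arrays stood at 97.1 and 93.5. The 2-week signals of NDRG4 lay little above the highest Bacillus control probe set (28.1), a mark of background, so the size of its change is uncertain. TBC1D4, which controls the traffic of the insulin-responsive glucose transporter, was at 159.8 and 100 and then at 539.6 and 381.6, with changes of 1.42 and 2.02. At 8 weeks its replicates parted, at 185.3 and 539.0. In both genes the lower 4-week array exceeded the higher 2-week array by more than 2-fold, with gaps of 1.24 and 1.18.

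C5H12orf75 stood at 83.2 and 80.5 at 2 weeks and at 266.1 and 181.0 at 4 weeks, with changes of 1.25 and 1.29. NUDT4, a phosphatase of inositol pyrophosphates and nucleotides, was at 297.9 and 228.4 and then at 567.3 and 624.6, and at 604.1 and 636.2 at 8 weeks. C5H12orf75 was similar on the 2 arrays of 2 weeks, while the changes of NUDT4 were 0.96 and 1.32. For ZBTB44, a zinc finger protein, the 2-week arrays differed more. It was at 161.6 and 72.7 and then at 300.9 and 320.1, so its change was 0.88 against the first array and 1.88 against the second. At 8 weeks ZBTB44 was at 185.6 and 131.9, below both 4-week arrays.

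NT5E, the ectoenzyme that makes extracellular adenosine, was at 49.6 and 45.0, then at 92.5 and 97.7, and at 186.0 and 159.1 at 8 weeks. KYAT3, an aminotransferase of kynurenine, was at 121.4 and 64.2 and then at 266.5 and 218.0. PCSK1N, an inhibitor of prohormone convertase, was at 447.2 and 578.2 and then at 899.8 and 1002.6. For PCSK1N the change was larger against 2wk replicate 1 (1.06) than against replicate 2 (0.70), the reverse of most genes named here. SERPINI1, the serpin neuroserpin, was at 247.1 and 97.8 and then at 405.7 and 479.2, with changes of 0.80 and 2.01.

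LIMA1, which bundles actin filaments, was at 334.2 and 311.6 and then at 532.2 and 549.7. SORBS2, an adaptor of the actin cytoskeleton, was at 71.4 and 56.8 and then at 153.4 and 121.1. AKAP5, which anchors protein kinase A, was at 115.0 and 104.6 and then at 201.7 and 234.6. CCDC69, a coiled-coil protein, was at 152.3 and 159.3 and then at 279.8 and 356.4. In these 4 genes the changes against the 2 arrays of 2 weeks ranged from 0.67 to 1.07. A second AKAP5 probe set was at 39.5 and 6.5 and then at 33.8 and 55.7, which overlapped, with changes of 0.11 and 1.41.

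IGSF1, a membrane glycoprotein whose loss in humans causes central hypothyroidism with enlarged testes, was at 41.2 and 68.0 at 2 weeks. At 4 weeks it was at 123.6 and 124.3, and at 8 weeks at 162.9 and 147.3. BOLA-N, a class I histocompatibility gene, was at 467.5 and 510.9 and then at 906.1 and 3316.2. Its 4wk replicate 2 was far above every other array, and the 8-week values of 776.8 and 283.1 straddled those of 2 weeks. Class I genes have near-identical copies, so the assignment to 1 gene is uncertain. The next genes outside the 15 named were LMO7 and MRM2, both with a gap of 0.62, equal to that of PCSK1N at 2 decimals.

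**Figure D2:**
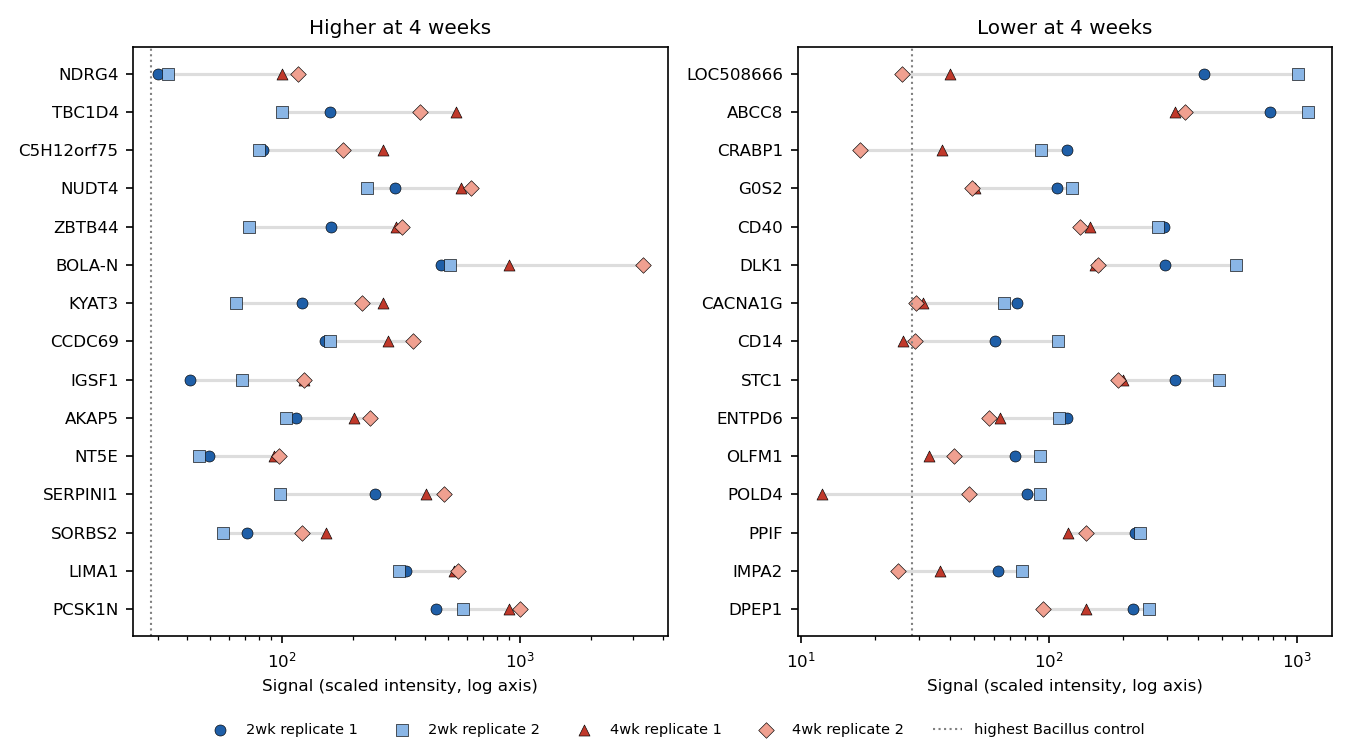
Signals (scaled intensity, log axis) of the 15 genes higher (left) and 15 lower (right) at 4 weeks with the widest gap between ages, 1 symbol per array. The dotted line is the highest Bacillus control at 28.1, and in each gene the 2-week and 4-week symbols do not overlap, which is how these genes were chosen.

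Among genes lower at 4 weeks, LOC508666 had the widest gap. It was at 424.8 and 1016 at 2 weeks and at 40.1 and 25.7 at 4 weeks, but its 8-week arrays stood at 544.2 and 47.3. One 4-week value lay under the highest Bacillus control probe set (28.1), which marks background because no bovine transcript matches it, so no size of change is read. With the 4 arrays alone in the fit its limma adjusted p was 0.00412, and with all 6 arrays it was 0.945. Over 16 alternatives that value ran from 0.00412 to 0.9999 and was below 0.05 in 4.

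ABCC8, the sulfonylurea receptor subunit of potassium channels, was at 783.0 and 1109.0 at 2 weeks and at 323.5 and 354.2 at 4 weeks. Its changes were -1.17 and -1.67, and at 8 weeks it was at 207.8 and 386.8. CACNA1G, a T-type calcium channel, was at 74.3 and 65.9 and then at 31.3 and 29.1, with changes of -0.97 and -0.83. Its 4-week signals lay little above the highest Bacillus control (28.1), so the size of its change is uncertain. At 8 weeks CACNA1G was at 58.9 and 47.2. Both channel genes were thus lower on each 4-week array than on either 2-week array.

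DLK1, a paternally expressed relative of the Notch ligands, was at 294.1 and 569.5 and then at 153.8 and 158.6. Its change was -0.85 against the first array of 2 weeks and -1.77 against the second. STC1, the secreted hormone stanniocalcin, was at 324.2 and 488.1 and then at 198.8 and 189.7, with changes of -0.69 and -1.26. For both genes the 4-week arrays were close together and the 2-week arrays farther apart. OLFM1, a secreted olfactomedin, was at 73.5 and 92.4 and then at 33.0 and 41.5.

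G0S2, the inhibitor of adipose triglyceride lipase, was at 108.3 and 124.4 and then at 50.4 and 49.3, with changes of -0.92 and -1.09. CRABP1, which binds retinoic acid in the cytoplasm, was at 118.2 and 93.5 and then at 37.2 and 17.4, and at 38.2 and 37.5 at 8 weeks. CRABP1 lay under the highest Bacillus control on 4wk replicate 2, so no size of change is read. DPEP1, a membrane dipeptidase, was at 219.4 and 253.9 and then at 141.8 and 95.2. ENTPD6, which hydrolyses nucleoside diphosphates, was at 119.0 and 109.8 and then at 64 and 57.6.

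Of immune receptors, CD40, a costimulatory receptor of antigen-presenting cells, was at 291.2 and 275.5 and then at 147.4 and 134.2. A second CD40 probe set was at 83.2 and 95.7 and then at 112.4 and 80.6, which overlapped. CD14, the lipopolysaccharide co-receptor of monocytes, was at 61.1 and 109.2 and then at 26 and 29.0. PPIF, the mitochondrial cyclophilin, was at 223.7 and 234.6 and then at 119.5 and 141.2. POLD4, a subunit of DNA polymerase delta, was at 81.5 and 92.0 and then at 12.2 and 47.9, and IMPA2, an inositol monophosphatase, at 62.7 and 78.4 and then at 36.6 and 24.8. CD14, POLD4 and IMPA2 each had a 4-week array under 28.1. PLA2G7 and A2M lay just outside the 15 lower genes, both with a gap of -0.56 against -0.58 for DPEP1.

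Several probe sets of a gene read the same RNA and are not further replicates. Of 1733 genes with several named probe sets over the filter, every one was higher without overlap in 62 (3.58%) and lower in 55 (3.17%), and 27 (1.56%) had probe sets in both directions. The widest smallest gaps on the higher side belonged to ZBTB44, C5H12orf75, NUDT4 and NT5E, with 2 probe sets each. The second probe set of NUDT4 was at 103.0 and 77.3 and then at 153.0 and 165.8, and that of NT5E at 43.6 and 15.3 and then at 66.0 and 75.8. The NT5E value of 15.3, on 2wk replicate 2, lay under the highest Bacillus control. ACHE, acetylcholinesterase, was at 111.9 and 86.3 and then at 151.9 and 232.5, and HPGD, which inactivates prostaglandins, at 204.5 and 83.1 and then at 387.6 and 255.9. At 8 weeks ACHE was at 83.2 and 110.2, and HPGD at 457.4 and 387.1. On the lower side WNT2B, a Wnt ligand, was at 137.8 and 140.6 and then at 105.3 and 86.3. TIMP1, an inhibitor of matrix metalloproteinases, was at 374.3 and 484.8 and then at 311.8 and 262.1. COL3A1, a fibrillar collagen, was at 2499.6 and 2285.0 and then at 1935.8 and 1620.2. Both probe sets of each of these genes kept the 2 ages apart.

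Gene lists for cell types and pathways were read by the brightest probe set of each gene. Over all 7156 genes, 764 (10.7%) were higher and 1185 (16.6%) lower without overlap. At an unadjusted p under 0.05 in limma, 105 (1.47%) were higher and 135 (1.89%) lower. The median change of all genes was -0.04 in the fit, 0.00 against 2wk replicate 1 and -0.13 against replicate 2. No member of any list passed the adjusted threshold, so counts below are of arrays that did not overlap.

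Of 16 measured Sertoli cell genes, 4 were higher, 3 lower and 9 overlapped, with a median of 0.24 and -0.06 against the 2 arrays of 2 weeks. GJA1, the gap junction protein that couples Sertoli cells, was at 935.4 and 740.0 and then at 1404.5 and 1428.8, and at 1836.5 and 2152.6 at 8 weeks. CLDN11, the claudin of the Sertoli cell tight junction, was at 29.7 and 39.7 and then at 325.8 and 49.5. Its second probe set was at 11.8 and 5.3 and then at 99.2 and 34.4, so 4wk replicate 1 was the highest with both probe sets. NR0B1, a nuclear receptor that represses steroidogenic genes, was at 91.9 and 131.2 and then at 75.3 and 69.5. SHBG, which binds sex steroids, was at 62.2 and 72.9 and then at 38.7 and 45.3.

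Of 20 junction genes, 5 were higher, 6 lower and 9 overlapped, with medians of -0.02 and 0.02. CLDN1, another claudin, was at 160.1 and 118.3 and then at 212.9 and 256.5, with changes of 0.50 and 0.90. Its second probe set was at 79.8 and 80.9 and then at 147.2 and 164.9. At 8 weeks CLDN1 stood at 135.3 and 112.0 with the brighter probe set, 1 array inside and 1 below the range of 2 weeks. With the second it was at 128.0 and 93.3, above both of its 2-week values. CLDN5, the claudin of endothelium, went the other way, at 369.5 and 572.5 and then at 260.4 and 181.7.

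Leydig cell and steroidogenic genes mostly overlapped, in 11 of 14 measured, with 1 higher and 2 lower. AKR1C4, an aldo-keto reductase, was at 628.6 and 692.8 at 2 weeks and at 530.9 and 22.4 at 4 weeks, so that a single array was low. Its second probe set, at 189.2 and 205.7 and then at 109.7 and 193.6, overlapped, and members of this enzyme family are near-identical, which makes the assignment uncertain. LHCGR, the luteinizing hormone receptor, was at 32.6 and 37.3 and then at 34.0 and 74.7 with its brighter probe set. With the other it was at 21.1 and 12.7 and then at 41.8 and 94.6, without overlap but under 28.1 at 2 weeks. POR, the electron donor of microsomal cytochromes P450, was at 209.9 and 328.0 and then at 204.9 and 208.2.

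Of 19 genes of cholesterol synthesis and its regulation, 4 were higher, 1 was lower and 14 overlapped. Their median change was 0.39 against 2wk replicate 1, with 18 of 19 above it, but -0.18 against replicate 2, with 8 of 19 above. HMGCS1, which makes hydroxymethylglutaryl-CoA, was at 832.7 and 781.4 and then at 1094.3 and 1727.7. MSMO1, the sterol C4-methyl oxidase, was at 819.4 and 792.3 and then at 982.5 and 1709.7. In both, 4wk replicate 2 was the higher. CYP51A1, lanosterol demethylase, was at 195.8 and 120.1 and then at 218.2 and 255.3. TM7SF2, a sterol reductase, was at 26.3 and 51.6 and then at 60.9 and 89.6, the first under the highest Bacillus control. These were the 4 higher genes. SREBF1, the lower gene, was at 497.3 and 491.6 and then at 448.9 and 418.0.

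Of 10 measured gonocyte and spermatogonial genes, 1 was higher, 4 were lower and 5 overlapped, with medians of -0.11 and -0.38. The fitted change was positive in 4 of the 10 and negative in 6. ASZ1 was the higher gene, at 180.2 and 174.2 and then at 205.6 and 244.6, with changes of 0.29 and 0.34. MAEL, which silences transposons in the germ line, was at 101.7 and 154.7 and then at 60.3 and 69.0. EPCAM, an adhesion molecule of gonocytes, was at 55.5 and 72.9 and then at 41.2 and 27.6, the last under the highest Bacillus control. UCHL1, the ubiquitin hydrolase of spermatogonia, was at 740.6 and 840.9 and then at 658.6 and 493.7, and PRDM1, a repressor needed by primordial germ cells, at 102.4 and 87.7 and then at 71.5 and 74.1. Of the other MAEL probe sets, 1 was also lower, at 103.5 and 125.9 and then at 64.4 and 91.8, and 1 overlapped, at 48.6 and 61.0 and then at 55.3 and 42.5. Both other PRDM1 probe sets overlapped.

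Of 5 measured genes of meiosis and spermatids, 3 were higher and 2 overlapped. HSPA2, the testis chaperone of spermatocytes, was at 87.9 and 110.7 and then at 144.1 and 124.6, and TEX12, a synaptonemal complex protein, at 95.2 and 94.3 and then at 119.4 and 107.2. Both genes had changes between 0.22 and 0.53 against either array of 2 weeks. ODF2 overlapped, at 388.8 and 311.4 and then at 321.6 and 249.2, with changes of -0.44 and -0.13. Of the same list, the 6 genes ACR, CRISP2, PRM1, PRM2, TNP1 and TNP2 lay under the highest Bacillus control on all 4 arrays.

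Of 14 peritubular and smooth muscle genes, 4 were higher, 1 was lower and 9 overlapped. TPM2, a tropomyosin, was at 107.8 and 115.2 and then at 152.4 and 149.2, and RGS5, a G protein regulator of pericytes, at 327.8 and 108.3 and then at 341.6 and 577.8. The RGS5 change was 0.42 against the first array of 2 weeks and 1.89 against the second, whereas that of TPM2 was 0.43 and 0.35. RGS5 had a gap of only 0.06. PDGFRB, the lower gene, was at 58.3 and 63.9 and then at 51.4 and 46.9. ACTA2, MYH11, TAGLN, CNN1 and DES overlapped, with fitted changes of -0.12, -0.09, -0.05, 0.05 and 0.12.

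Of 17 endothelial genes, 4 were lower, 1 was higher and 12 overlapped, and the 4-week mean of 10 lay below each 2-week array. Their median was -0.29 against 2wk replicate 1 and -0.04 against replicate 2, the opposite order to most lists. In the fit 12 of the 17 were negative and 5 positive. LYVE1, the higher gene, was at 52.8 and 48.5 and then at 64.3 and 65.2. FLT4, KDR and VWF lay under the highest Bacillus control on all 4 arrays. Among the lower genes PECAM1, an adhesion molecule of endothelium, was at 119.0 and 109.6 and then at 70.7 and 91.8. CDH5, vascular cadherin, was at 144.2 and 162.4 and then at 124.6 and 93.5, and SOX18, an endothelial transcription factor, at 114.4 and 130.6 and then at 78.8 and 99.6. The second probe sets of PECAM1, at 55.8 and 83.7 and then at 41.8 and 56.0, and of CDH5, at 33.9 and 45.4 and then at 9.4 and 49.8, both overlapped. Angiogenic factors and receptors had 6 lower, 1 higher and 15 overlapping of 22. ANGPTL4, an angiopoietin-like inhibitor of lipoprotein lipase, was at 80.2 and 61.7 and then at 44.0 and 48.0, and the fibroblast growth factor receptor FGFR1 at 102.2 and 94.0 and then at 88.3 and 59.7. The other FGFR1 probe set, at 58.7 and 33.1 and then at 30.5 and 39.5, overlapped, with changes of -0.56 and 0.05.

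**Figure D3:**
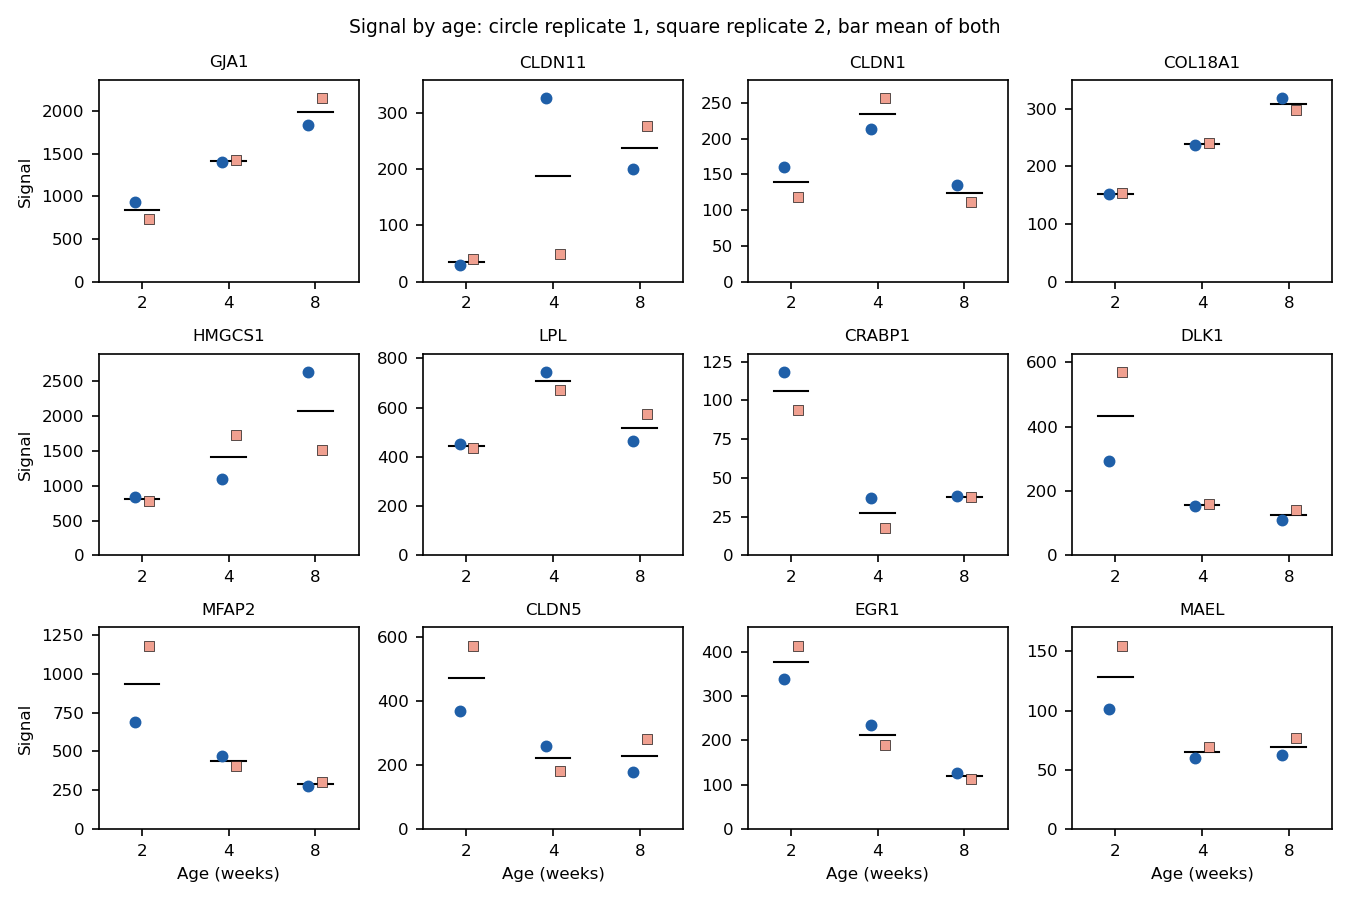
Signals (scaled intensity, linear axis from 0) of 12 genes, chosen after their values were seen, against age in weeks, with a circle for replicate 1, a square for replicate 2 and a bar for their mean. COL18A1 and GJA1 are higher at each later age, while CLDN1 and LPL are highest at 4 weeks and CRABP1, DLK1, MFAP2, CLDN5, EGR1 and MAEL are highest at 2 weeks.

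Of 44 matrix genes, 14 were lower, 5 higher and 25 overlapped, and 6 were lower and 2 higher at an unadjusted p under 0.05. MFAP2, a microfibril protein of elastic fibres, was at 692.8 and 1180.7 and then at 469.3 and 406.0. FBLN5, which organises elastic fibres, was at 173.5 and 250.8 and then at 120.1 and 116.0, and MMP2, a gelatinase, at 412.8 and 497.8 and then at 280.6 and 308.4. COL18A1, a collagen of basement membranes, went the other way, at 152.4 and 152.8 and then at 236.1 and 240.2. Its replicates were close at both ages, and its change was 0.59 against each 2-week array.

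Retinoid genes were divided, with 3 higher, 3 lower and 8 overlapping of 14. RDH10, which oxidises retinol, was at 234.0 and 150.4 and then at 263.4 and 488.9, and the retinal dehydrogenase ALDH1A1 at 2950.9 and 3086.4 and then at 3167.7 and 4756.7. At 8 weeks RDH10 was at 251.3 and 145.5, and ALDH1A1 at 5378.8 and 5233.4. BCO1, which cleaves beta-carotene, was lower with CRABP1, at 33.3 and 51.4 and then at 7.2 and 31.0. In RDH10 and ALDH1A1 the higher 4-week array was replicate 2, and in BCO1 the lower one was replicate 1. BCO1 lay under the highest Bacillus control on 4wk replicate 1, so no size of change is read.

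Of 18 insulin and insulin-like growth factor genes, 2 were higher, 3 lower and 13 overlapped. IGF2, the fetal growth factor, was at 2452.6 and 3882.6 and then at 2295.2 and 2344.9, so its change was -0.08 against the first array of 2 weeks and -0.74 against the second. A second IGF2 probe set was at 1517.7 and 1552.9 and then at 1528.8 and 2289.9, and overlapped. Of 19 imprinted and fetal growth genes, 6 were lower, 3 higher and 10 overlapped. Beside DLK1, NDN, the imprinted growth suppressor necdin, was at 396.4 and 432.0 and then at 302.2 and 253.1, with changes of -0.50 and -0.61.

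Of 21 Hedgehog, Notch and Wnt genes, 7 were lower, 1 was higher and 13 overlapped, with medians of -0.07 and -0.35. FZD1, a Wnt receptor, was at 318.2 and 290.3 and then at 220.9 and 242.9. Its second probe set, at 64 and 73.5 and then at 39.9 and 76.5, overlapped. DLL4, a Notch ligand of endothelium, was at 59.3 and 50.3 and then at 42.4 and 34.9. The TGF-beta family had 4 higher, 3 lower and 14 overlapping of 21. INHBA, the activin and inhibin beta A subunit, was at 807.3 and 645.8 and then at 853.6 and 914.3. Of 11 hormone receptor genes 2 were lower and 9 overlapped. THRA, a thyroid hormone receptor, was 1 of the lower genes, at 234.1 and 329.5 and then at 233.8 and 172.8, where the nearest arrays of the ages were almost equal.

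Of 30 immediate early and heat shock genes, 9 were lower, 5 higher and 16 overlapped, and 4 were lower at an unadjusted p under 0.05. EGR1, an immediate early transcription factor, was at 339.2 and 413.8 and then at 234.7 and 189.3, and at 126.9 and 112.8 at 8 weeks. A dimmer EGR1 probe set was at 80.0 and 91.9 and then at 70.4 and 83.5, and overlapped. JUNB, a partner of FOS, was at 147.6 and 221.8 and then at 113.1 and 92.8. FOS was at 43.5 and 59.0 and then at 38.2 and 9.8, the last under the highest Bacillus control. HSPA1A, the inducible heat shock protein, was at 1095.8 and 1215.4 and then at 859.1 and 612.7, though its other probe sets did not all follow and near-identical copies exist.

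Of 59 cell cycle genes, 9 were higher, 7 lower and 43 overlapped. HMMR, a spindle protein, was at 129.5 and 92.0 and then at 218.2 and 174.2, and ZWINT, of the kinetochore, at 128.3 and 94.8 and then at 200.2 and 141.9. BUB3, of the spindle checkpoint, was at 525.4 and 618.9 and then at 440.4 and 381.5, and the mitotic kinase AURKA at 92.6 and 119.7 and then at 75.4 and 70.6. A dimmer AURKA probe set, at 38.0 and 48.7 and then at 37.9 and 51.2, overlapped. Among 13 inhibitors of the cycle, 3 were higher and 2 lower. RPRM, which arrests cells before mitosis, was at 123.7 and 163.5 and then at 86.4 and 51.8, and BTG3, an antiproliferative factor, at 784.5 and 578.6 and then at 912.7 and 1080.7.

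Several lists differed in sign between the 2 arrays of 2 weeks. Of 76 oxidative phosphorylation genes, 72 were lower against 2wk replicate 2 (median -0.44) and 54 were higher against 2wk replicate 1 (median 0.08). For 64 ribosomal protein genes these counts were 63 and 63, with medians of -0.23 and 0.18, and 63 overlapped. Of 26 glycolysis genes, 21 were lower against 2wk replicate 2 (median -0.43) and 17 higher against replicate 1 (median 0.08). ATP5MC1, a subunit of ATP synthase, was nevertheless lower than both, at 467.4 and 658.4 and then at 387.5 and 353.0, as was COX7A1 of cytochrome oxidase, at 453.1 and 673.1 and then at 377.5 and 377.1. In these lists 13, 0 and 3 genes were lower without overlap, and 0, 1 and 0 higher. The plot of list medians shows them as lists whose symbols fall on opposite sides of 0.

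**Figure D4:**
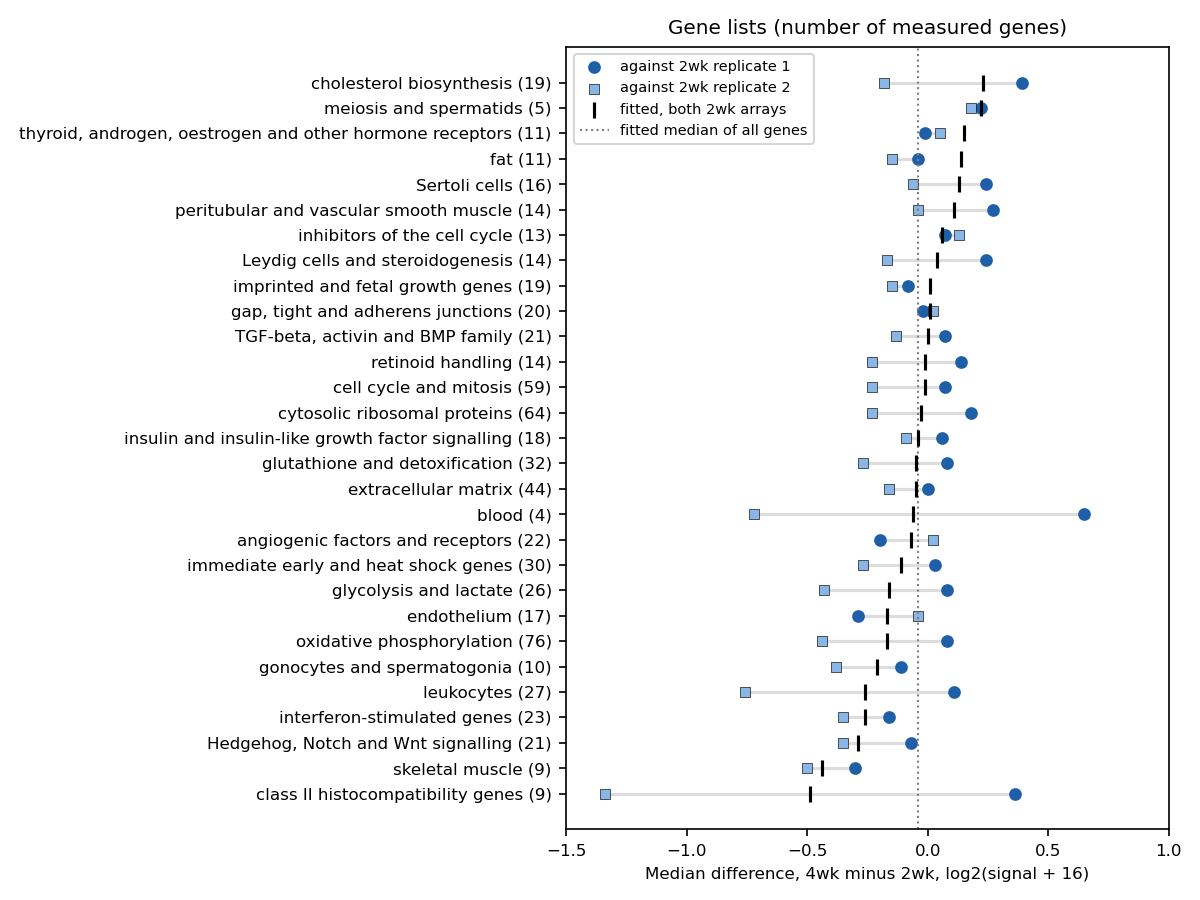
Median difference between 4 and 2 weeks, in log2(signal + 16), of the genes of each list with at least 4 measured genes (number in brackets), against 2wk replicate 1 (circle), against 2wk replicate 2 (square) and in the fit (bar). The class II histocompatibility list spans 0.36 to -1.34 and the leukocyte list 0.11 to -0.76, while the junction list lies between -0.02 and 0.02.

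The leukocyte list also changed sign, with 4 lower, 0 higher and 23 overlapping of 27 measured. At an unadjusted p under 0.05 in limma, 2 were lower. The summed signal of the 32 named leukocyte genes was 3842 and 7271 at 2 weeks and 4608 and 3937 at 4 weeks, and CD5, CD79A and ITGAM lay under the highest Bacillus control on all 4 arrays. CD8B, a chain of the T cell coreceptor, was at 76.5 and 125.1 and then at 61.8 and 51.0, and CXCR4, a chemokine receptor, at 79.8 and 98.5 and then at 49.4 and 62.9. Both were lower than either array of 2 weeks, whereas the median of the list was 0.11 against 2wk replicate 1 and -0.76 against replicate 2. The part of leukocyte content in the other changes was not tested.

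Class II histocompatibility genes, which present peptides to T cells, had the widest distance between the 2 medians of any list with at least 4 genes. Of 9 measured, 1 was lower and 8 overlapped. The summed signal of the 11 named class II genes was 1430 and 5403 at 2 weeks and 2099 and 2073 at 4 weeks. BOLA-DQA5 was at 16 and 656.9 and then at 22.1 and 9.1, and BOLA-DQB at 8.9 and 371.1 and then at 17.3 and 29.4. BOLA-DMB, which loads peptides, was the gene without overlap, at 187.1 and 362.6 and then at 165.2 and 103.0. Interferon-stimulated genes had 8 lower, 2 higher and 13 overlapping of 23, with medians of -0.16 and -0.35. ISG15, a ubiquitin-like modifier, was at 242.8 and 576.3 and then at 187.5 and 144.9, and IFI6, an interferon-inducible mitochondrial protein, at 784.6 and 1684.6 and then at 549.0 and 643.0. At 8 weeks ISG15 was at 1109.9 and 165.8, so replicates of 1 age differed more widely than the ages.

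Markers of tissues that a dissection can bring along were measured too. Of 9 skeletal muscle genes over the filter, 5 were lower and 4 overlapped. CKM, muscle creatine kinase, was at 977.1 and 1123.8 and then at 790.0 and 743.2, but 9 of the 21 named muscle genes, among them MYL1, MYL2, NEB and TNNI2, lay under the highest Bacillus control on all 4 arrays. The summed signal of the list was 2264 and 2822 and then 1939 and 2000. Of 4 blood genes 1 was lower and 3 overlapped. HBB, the haemoglobin beta chain, was at 12.5 and 317.9 and then at 109.4 and 43.6, and HBG overlapped likewise. Of 11 fat genes 1 was higher and 2 were lower. LPL, lipoprotein lipase, was at 453.9 and 434.6 and then at 744.4 and 672.4, whereas ADIPOQ, FABP4, LEP and PPARG were under 28.1 on all 4 arrays. Of the 9 named epididymis and rete genes only PAX8 passed the filter.

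Glutathione and detoxification genes had 8 lower, 2 higher and 22 overlapping of 32. NQO1, a quinone reductase, was at 176.0 and 192.3 and then at 144.8 and 106.4, and MGST1, a microsomal glutathione transferase, at 216.9 and 261.1 and then at 281.2 and 442.2. The lower share was larger against 2wk replicate 2 (25 of 32) than against 2wk replicate 1 (12 of 32).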

How the data were processed

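RNA of bull calf testis was measured on 6 arrays, 2 at each of 3 ages. The authors deposited a linear signal intensity for each probe set, and the submitters' processing notes name GCOS version 1.4.0.036. Neither the summarisation settings nor detection calls were used here. The values show equal trimmed means (125.02 to 125.03) on all arrays. Controls (112 probe sets) entered no test. Of 24016 others, 13292 had 1 symbol in the platform annotation, 86 several and 10638 none.

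Log2(signal + 16) of the 14796 probe sets with a mean signal over 30 on the 4 arrays compared entered limma 3.58.1 (R 4.3.3), with lmFit and eBayes with a variance trend, 1 coefficient per age, 3 residual and 7.61 prior degrees of freedom, and Benjamini-Hochberg adjustment at 0.05. Members and the 30 gene lists were chosen with earlier results of these data known. Genes were judged by their brightest probe set. The rule named the 15 higher and 15 lower genes with the largest smallest difference between a 4-week and a 2-week array and over 60 on the higher age, and up to 4 list members by smallest p. The script was tested on simulated data. The number of arrays limits the precision. Alternatives were pseudocounts, filters, quantile normalization, the arrays fitted, array weights, the variance trend, a replicate block and leaving out each array.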

Additional observations from a re-analysis of the deposited data

How the results depend on the processing

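The count of 0 probe sets past the adjusted limma threshold was also 0 with array weights, pseudocounts 1 and 64, quantile normalization and no variance trend. Array weights were equal for both arrays of an age (0.429 at 2 weeks, 1.23 at 4 weeks). They could therefore not set 2wk replicate 2 apart from its replicate. The count was 0 too without the filter on low values (24016 probe sets tested), with means over 100 (8279 tested) and with the filter on all 6 arrays. It was 1 with only the 4 arrays compared in the fit, and 0 to 1109 when an array was left out. The 526 probe sets at an unadjusted p under 0.05 became 1087 without the filter, 258 with means over 100, 333 with only the 4 arrays, 309 with array weights, and 284 to 3956 when an array was left out. The 1091 higher and 1444 lower named probe sets without overlap became 1729 and 2036 without the filter, where all 13292 named probe sets were counted. They became 578 and 903 with means over 100. These counts and those of unadjusted p thus rest on different numbers of probe sets. When an array was left out, 2285 to 3104 were higher and 2684 to 4211 lower, since fewer arrays overlap less often.

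With the replicate number as a block, 0 probe sets passed and 701 had an unadjusted p under 0.05. The labels do not say what the numbers share. The replicate differences of 2 and 4 weeks correlated at 0.20 across probe sets, those of 2 and 8 weeks at -0.01 and those of 4 and 8 weeks at -0.06.

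Of the named genes, the fitted difference changed sign in a few. HBB was at -0.17 and at 0.10 with pseudocount 1. When an array was left out, the values ran from -0.03 to 0.83 for LHCGR, -0.05 to 0.70 for SCARB1, -3.32 to 0.64 for BOLA-DQB, -0.42 to 0.72 for HBG, -1.95 to 1.60 for HBB, -0.49 to 0.59 for CA2, -1.51 to 0.13 for TNNC1, -0.21 to 1.18 for GPAM, -0.48 to 0.29 for PAX8, -0.01 to 1.19 for IGFALS, -0.19 to 1.07 for SMAD5, -0.56 to 0.04 for RPS9, -0.36 to 0.03 for RPLP2 and -0.43 to 0.13 for FAU. The cause was not tested.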

Other observations

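Some genes differed on a single array, whichever age it belonged to. Over the 9348 named probe sets, 2wk replicate 2 lay over 2-fold above the other 3 arrays in 37 and over 2-fold below them in 175. For 2wk replicate 1 these counts were 0 and 12, for 4wk replicate 1 they were 5 and 12, and for 4wk replicate 2 they were 16 and 32. The genes below were chosen after their values were seen, and get no test.

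Among transcripts low on 2wk replicate 2 alone, SFPQ, a splicing factor of nuclear paraspeckles, was at 428.8 there and at 1921.5 to 2189.2 on the other 3 arrays. Its second probe set was at 45.4 against 242.8 to 281.7. PNISR, a nuclear speckle protein, was at 54.3 against 308.0 to 364.5. The 8-week arrays resembled the other 3, with SFPQ at 2309.6 and 2034.7. Among those high on that array, CTSW, a cathepsin of cytotoxic lymphocytes, was at 592.4 against 122.7 to 171.3, and MPEG1, the macrophage perforin, at 429.6 against 68.1 to 139.0. A BOLA-DQB1 probe set was at 644.1 there and at 3.9 to 7.6 on the other 3.

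On 4wk replicate 2 a BOLA-DQA2 probe set was at 478.1 against 8.7 to 37.1, and 8wk replicate 2 was at 455.1. Another BOLA-DQB1 probe set was at 151.0 there against 673.0 to 2377.7. PRSS2, a trypsinogen, was at 16.5 on 4wk replicate 1 and at 200.4 to 276.0 on the other 3. VSIG1, an immunoglobulin-domain adhesion protein, was at 83.9 on that array and at 18.6 to 31.0 on the others, and at 103.2 and 54.6 at 8 weeks, with a second probe set at 70.5 against 10.9 to 26.9.

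An unnamed probe set, the one that passed without 2wk replicate 2, was at 1255.7 on 2wk replicate 1 and at 0.7 to 5.9 on the other 5 arrays. Another, which passed without 4wk replicate 1, was at 466.2 on 4wk replicate 2 and at 0.5 to 4.2 elsewhere. CPE, a carboxypeptidase that processes prohormones, was at 294.9 and 90.6 at 2 weeks, at 456.5 and 636.7 at 4 weeks and at 202.5 and 295.2 at 8 weeks, so that only the 4-week arrays were high.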
